A study of Mus musculus with 54 samples.

Results

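The genes described here are the eukaryotic translation initiation factors (eIFs, *Eif* genes) and elongation factors (eEFs, *Eef* genes), together with the kinases, methyltransferases and binding proteins that carry the same name stems. They were taken as every gene in the deposited count table whose symbol starts with Eif or Eef and a digit, with at least 1 read in more than 6 of the 18 replicates. This gave 64 of the 18941 genes tested. Of the 66 symbols that matched, *Eif4e1b* (1 read in all) and *Eif2c5* (0 reads) were too low, and 5 further rows named as pseudogenes were dropped. RNA was sequenced from the suprachiasmatic nucleus (SCN), the hypothalamic nucleus that holds the central circadian clock of mammals, which was cut out by laser-capture microdissection. The mice were male C3H/HeH, 10 to 12 weeks old, kept in 12 hr of light and 12 hr of darkness, and carried no engineered allele or drug treatment according to the labels. The groups were 6 timepoints (ZT2, ZT6, ZT10, ZT14, ZT18 and ZT22, where ZT is zeitgeber time in hr after lights on), each with 3 replicates (A, B and C) and each replicate a pool of 5 mice, so n = 3 counts pools.

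An mRNA is translated after a small ribosomal subunit, carrying the initiator tRNA on eIF2 and held by eIF1, eIF1A, eIF3 and eIF5, is recruited to the cap by eIF4F and scans to the start codon. The eIF4F complex joins the cap-binding protein eIF4E, the scaffold eIF4G and the helicase eIF4A. eEF1A then brings each aminoacyl-tRNA to the ribosome and eEF2 moves the ribosome along. Input into this machinery in the SCN is known from light signalling through the mTOR pathway, which acts on the eIF4E-binding proteins, and from phosphorylation of eIF2α by its kinases.

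Between 15412981 and 35820945 reads per replicate were counted on genes (median 25075231). Levels are given as CPM (read counts scaled to a library of 1e6 with TMM factors), as mean ± SD of n = 3. The timepoints resembled each other in 3 pairs, ZT22/ZT2, ZT6/ZT10 and ZT14/ZT18, and the study names sequencing batch beside timepoint as a source of separation between libraries, while holding any batch effect to be small on the evidence of its clock genes. No label ties a replicate to a batch, so a difference between pairs and a batch that follows the pairs cannot be told apart here. Within-pair differences are therefore given apart. The reads behind the deposited counts and normalized values differed mostly in the ZT6/ZT10 pair, as given with the processing. In whole pieces of tissue, fewer cells of one type and less RNA per cell cannot be told apart either. The summed level of 10 oligodendrocyte markers ran from 1359.5 to 6244 CPM between libraries, that of 8 telencephalic excitatory neuron markers from 133 to 1551 CPM and that of 12 SCN neuron markers from 2492 to 7265 CPM. Their medians were lowest at ZT6 for the first 2 lists and at ZT14 for the SCN list, and highest at ZT14 for the first 2 and at ZT6 for the SCN list. The 10 astrocyte markers had their lowest median at ZT10 (2641 CPM) and their highest at ZT2 (5230.0 CPM). None of the 12 SCN markers was at 0 throughout. But 10 of them were called cycling by the tests given below, beside 29.9% of all genes. So were all 10 oligodendrocyte markers, 9 of the 10 astrocyte markers and 1 of the 8 telencephalic markers. The study reports cycling of *Prok2* and *Rorb*, both on the SCN list, and twin peaks of *Camk2a*, on the telencephalic list. These sums are therefore no measure of cell content alone. Mitochondrial genes took 8.69% to 10.3% of counts at ZT6, 6.57% to 8.16% at ZT10 and 2.75% to 4.62% at ZT14. At ZT2, ZT18 and ZT22 they took 3.18% to 4.51%, 2.88% to 6.86% and 2.96% to 4.83%. Exon length averaged over reads was 4.28 to 4.74 kb at ZT6 and 4.20 to 4.41 kb at ZT10. Over the other timepoints it was 4.78 to 5.30 kb. The part that such cells, shares or lengths have in the results below was not tested.

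The translation factors did not move as one block. By a quasi-likelihood F-test in edgeR of equal timepoint means, 45 of the 64 members changed with time (Benjamini–Hochberg q under 0.05), beside 44.0% of all genes tested. That background includes genes of very few reads, and with at least 10 counts required in every replicate 48 of 61 members (78.7%) passed, beside 68.0% of 11444 genes. 36 members were called cycling, by the same test together with JTK_CYCLE (p under 0.05, period 24 hr), beside 29.9% of all genes. The counts by role and for other gene lists below stand beside these same shares of all genes. The share of cycling genes is given without that filter. So are the shares below for separate replicates and for steps between timepoints. They too include genes of very few reads. Among the 45, 25 were higher at ZT22 and ZT2 than over the other timepoints and 20 were lower. Their highest timepoint mean was 1.51 to 11.7 times the lowest, with a median of 2.39, and it was at least 2 times the lowest in 33 of them and at least 3 times in 11. In 10 members all 6 replicates of ZT22 and ZT2 lay above the other 12 replicates, which held for 4.21% of all genes, and in 9 members all 6 lay below, which held for 7.93% of all genes. The call was kept in every fit without 1 replicate for 37 of the 45 and under every alternative for 34. The remaining 19 members did not pass the test, with *Eif2b5* the flattest (1.17-fold between its highest and lowest mean). The median member differed by 0.15 on the log2 scale between ZT22 with ZT2 and the other timepoints, against 0.06 for all genes.

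**Figure D1:**
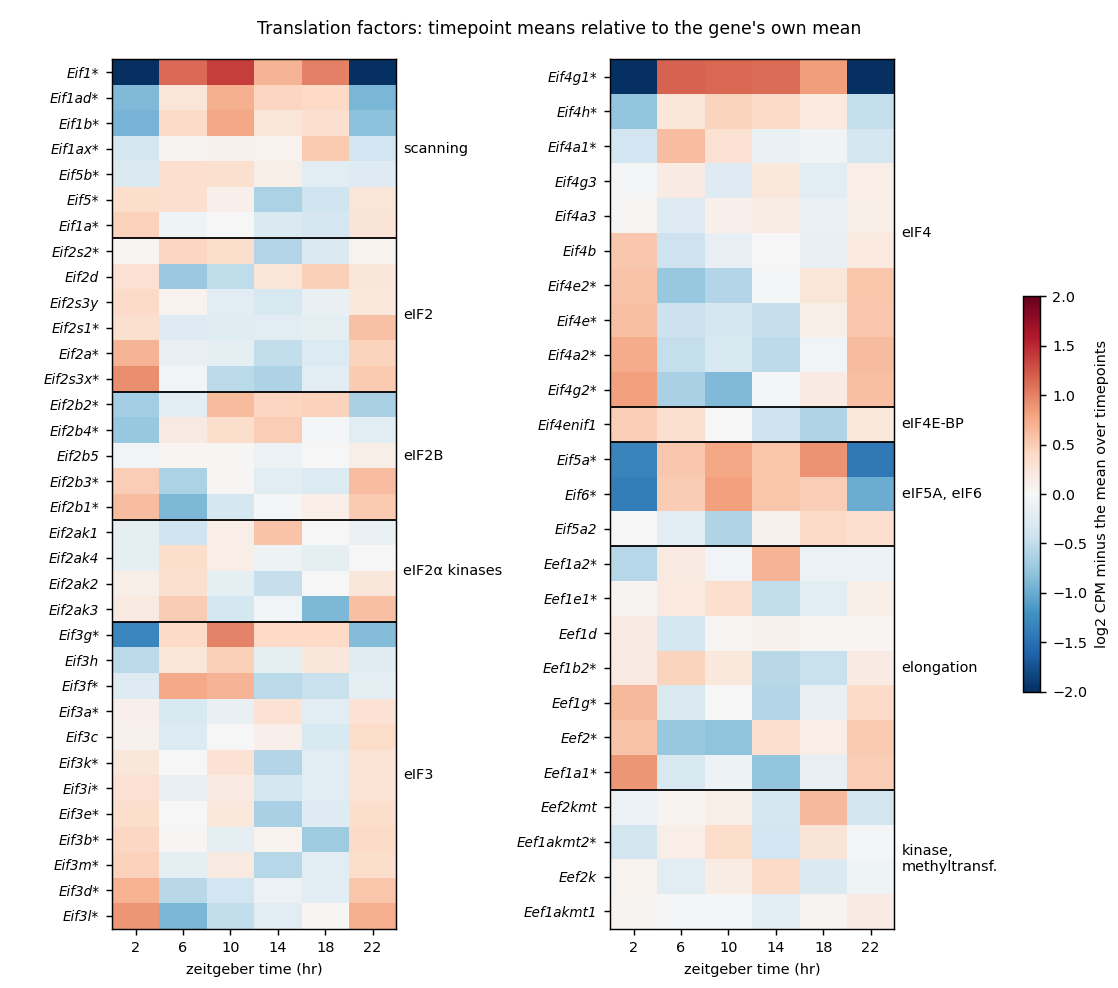
Timepoint means of the 59 members with a mean of at least 10 CPM, as log2 CPM minus the gene's own mean over the 6 timepoints (colour, from -2 to 2; lower values are drawn as -2), by zeitgeber time in hr and by role. An asterisk marks the members that changed with time. Blue at ZT2 and ZT22 is strongest in *Eif1*, *Eif4g1*, *Eif5a* and *Eif6*, and red there in *Eif3l*, *Eif2s3x*, *Eif4g2* and *Eef1a1*.

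Per kilobase of annotated exon, *Eef1a1* had the highest mean level (1369 CPM per kb), followed by *Eif1* (350.4), *Eef2* (294), *Eif4a2* (290.2) and *Eif3h* (216). *Eef1a1* alone held 24.6% of the summed CPM of all members. The 5 members with the highest CPM (*Eef1a1*, *Eif4a2*, *Eef2*, *Eif4g2* and *Eif1*) held 54.5%. The summed CPM of the members had its highest median at ZT2 (18207) and its lowest at ZT14 (11109). The lowest levels per kilobase were those of *Eef1akmt3* (0.175 CPM per kb), *Eif3j1* (0.776) and *Eif4ebp1* (1.49).

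All 7 genes grouped here under scanning and start-codon recognition changed with time, and 6 of them were called cycling. The group takes in *Eif5b*, which acts in the joining of the large subunit and whose call was a weak one, as given below. eIF1, which keeps the scanning ribosome open until it meets a start codon, had the smallest q of all members. *Eif1* stood at 133, 106 and 112 CPM in the 3 ZT2 replicates, 1449, 1123 and 700.4 at ZT6 and, at ZT10, 1262, 1463 and 1170.2. It stood at 826, 788 and 775 CPM at ZT14, 1087, 1087 and 813 at ZT18 and 119.6, 126 and 95.8 at ZT22. The ZT22 and ZT2 replicates were separate from all others by a wide gap, since the highest of them (133 CPM) was far under the lowest of the rest (700.4 CPM). The mean at ZT10 (1298 ± 149.9 CPM) was 11.4-fold that at ZT22 (114 ± 16.1 CPM, q = 2.29e-09, JTK_CYCLE exact p = 0.00328). *Eif1* rose from ZT2 to ZT6 by 3.22 ± 0.23 (SE) on the log2 scale and fell from ZT18 to ZT22, by a difference of -3.13 ± 0.23. Its paralog *Eif1b*, which encodes a closely related protein, had the same course over a smaller range. For *Eif1b* the replicates gave 83.5, 77.9 and 66.3 CPM at ZT2, 228, 203 and 132 at ZT6, and 216, 303 and 219 by ZT10. *Eif1b* gave 173, 163 and 173 CPM at ZT14, 191, 168 and 188 at ZT18 and 75.5, 89 and 79.9 at ZT22. Its 6 replicates at ZT22 and ZT2 again lay below the other 12, and its highest mean was 3.25-fold its lowest (q = 4.98e-06).

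*Eif1ad*, named for its eIF1A domain, was lowest at ZT22 (21.2 ± 10.4 CPM) and highest at ZT10 (65.4 ± 8.35 CPM, q = 0.00423). The X-linked eIF1A gene *Eif1ax* was also lowest at ZT22 (91.6 ± 5.63 CPM), but was highest at ZT18 (173 ± 27.3 CPM, q = 6.49e-04) and was not called cycling (JTK_CYCLE exact p = 0.0709). The autosomal gene *Eif1a* went the other way, with 161 ± 27.1 CPM at ZT2 and 93 ± 25.1 CPM at ZT18 (q = 0.0199). *Eif5*, the GTPase-activating protein of eIF2, was highest at ZT2 (172 ± 15.1 CPM) and lowest at ZT14 (86.6 ± 5.06 CPM, q = 3.63e-04). *Eif5b*, the GTPase that joins the large subunit, was highest at ZT6 (144 ± 31.3 CPM) and lowest at ZT2 (93.1 ± 6.57 CPM, q = 0.0381). The *Eif5b* call was lost in 15 of 18 leave-one-out fits (adjusted p up to 0.0980 in edgeR), and that of *Eif1a* in 2, without ZT2 replicate A or B (up to 0.0636).

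Of the 6 genes for eIF2 and other carriers of initiator tRNA, 4 changed with time, and all 4 were called cycling. The 3 subunits of eIF2 did not share one course. *Eif2s1*, the α subunit that the stress kinases phosphorylate, was 157 ± 7.79 CPM at ZT22 against 87.6 ± 17.4 CPM at ZT6 (q = 0.00302). *Eif2s2*, the β subunit, was highest at ZT6 (196 ± 19.6 CPM) and lowest at ZT14 (97 ± 12.5 CPM, q = 6.69e-04). *Eif2s3x*, the X-linked gene for the γ subunit, was highest at ZT2 (41.6 ± 3.63 CPM) and lowest at ZT14 (14.2 ± 0.993 CPM, q = 2.47e-04). For *Eif2s3x* the replicates gave 43.9, 43.5 and 37.4 CPM at ZT2, 15.5, 16.2 and 31.5 at ZT6, and 16.5, 12.8 and 16 by ZT10. *Eif2s3x* gave 15.4, 13.6 and 13.7 CPM at ZT14, 17.3, 21.3 and 17.6 at ZT18 and 32.3, 27.6 and 34.2 at ZT22. The 6 replicates of ZT22 and ZT2 were high, and ZT6 replicate C reached into their range. Its Y-linked copy *Eif2s3y* did not pass (q = 0.394), with 49.6 ± 10.7 CPM at ZT2 and 30.6 ± 4.58 CPM at ZT14. For *Eif2s3y* the replicates gave 57.3, 37.4 and 54.2 CPM at ZT2, 29.1, 22.5 and 68.8 at ZT6, and 36, 22.8 and 40.2 by ZT10. *Eif2s3y* gave 25.6, 34.5 and 31.6 CPM at ZT14, 34.2, 42.6 and 26.5 at ZT18 and 44.6, 43.6 and 44.1 at ZT22. Its highest replicate was ZT6 replicate C, far above its 2 partners. Without that replicate *Eif2s3y* passed the time test (edgeR, adjusted p = 0.0460). *Eif2a*, a separate factor that can also bind initiator tRNA, was higher at ZT2 (117 ± 19.3 CPM) than at ZT14 (52 ± 2.18 CPM, q = 0.00113). *Eif2d* was at 17.9 ± 8.55 CPM at ZT6 and 41.6 ± 16.7 CPM at ZT18 and did not pass in edgeR (q = 0.0509), but passed with DESeq2 (adjusted p = 0.0235), in 3 of 7 other alternatives and in 4 of 18 leave-one-out fits.

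eIF2B recycles eIF2 by exchanging its GDP for GTP. Of its 5 subunits, 4 changed with time, in 2 directions. *Eif2b1* was highest at ZT2 (118 ± 30.9 CPM) and lowest at ZT6 (41.1 ± 20.3 CPM, q = 0.00331), and *Eif2b3* was highest at ZT22 (86.1 ± 7.95 CPM) and lowest at ZT6 (36.1 ± 20.5 CPM, q = 0.0301). *Eif2b2* and *Eif2b4* were both lowest at ZT2, with 32.2 ± 20.5 and 25.7 ± 5.58 CPM. Their highest means were 79.8 ± 13 CPM at ZT10 (q = 0.044) and 61.4 ± 9.56 CPM at ZT14 (q = 0.013). For *Eif2b4* the replicates gave 19.6, 30.5 and 26.9 CPM at ZT2, 48.3, 53.2 and 45.5 at ZT6, and 58.9, 57.2 and 50.2 by ZT10. *Eif2b4* gave 64.3, 50.7 and 69.1 CPM at ZT14, 60.6, 44.3 and 21.7 at ZT18 and 36.2, 35.6 and 40.7 at ZT22. ZT18 replicate C of *Eif2b4* stood within the range of ZT2, apart from its 2 partners. The catalytic subunit *Eif2b5* stayed between 32.7 ± 6.32 and 38.4 ± 7.37 CPM (q = 0.935). The *Eif2b2* call was a weak one, lost in 11 of 18 leave-one-out fits (adjusted p up to 0.0901 in edgeR), and that of *Eif2b3* was lost in 3 of them (up to 0.0661), without ZT2 replicate B, ZT22 replicate A or ZT22 replicate B. After correction of a length and GC trend the *Eif2b2*, *Eif2b3* and *Eif2b4* calls were lost, and the *Eif2b4* difference between ZT14 and ZT2 came to 0.31 on the log2 scale (edgeR, adjusted p = 0.224).

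None of the 4 eIF2α kinases passed the time test with all replicates, which is 0 of 4 with edgeR and 0 of 4 with DESeq2 (0 of 4 also at an unadjusted p under 0.05). *Eif2ak1* (HRI) ranged from 28.7 ± 8.91 CPM at ZT6 to 56 ± 6.01 CPM at ZT14 (q = 0.127). *Eif2ak2* (PKR), *Eif2ak3* (PERK) and *Eif2ak4* (GCN2) had q values of 0.797, 0.484 and 0.658. Their mean levels over all replicates were 11.2, 13.2 and 18.5 CPM. In the ZT18 replicates the SD of *Eif2ak2* was as large as its mean (11 ± 11.8 CPM). Without ZT18 replicate C, the library with the fewest counted reads (15412981), *Eif2ak1* and *Eif2ak2* passed, with adjusted p values in edgeR of 0.00876 and 0.0255, so that the count became 2 of 4.

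eIF3 is the largest initiation factor, a scaffold of many subunits that binds the small ribosomal subunit. Of its 14 genes, 12 changed with time and 8 were called cycling. Their median difference from ZT10 to ZT14 was -0.62 on the log2 scale, with 4 of 14 past the threshold, all of them lower at ZT14. Over all genes that median was 0.12, and 7.52% were lower. The median difference from ZT18 to ZT22 was 0.51, with 5 of 14 past the threshold, all of them higher at ZT22. Over all genes that median was -0.04, and 6.27% were higher. *Eif3g*, the RNA-binding subunit that takes part in scanning, had the widest course. *Eif3g* stood at 11.1, 44.4 and 72.3 CPM in the 3 ZT2 replicates, 173, 144 and 95.2 at ZT6 and, at ZT10, 185, 267 and 173. It stood at 145, 123 and 147 CPM at ZT14, 161, 156 and 97 at ZT18 and 86.6, 31 and 54.6 at ZT22. Its replicates scattered widely at ZT2 but all 6 from ZT22 and ZT2 lay below the other 12. The mean at ZT10 (208 ± 51.3 CPM) was 4.89-fold that at ZT2 (42.6 ± 30.7 CPM, q = 0.0051).

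*Eif3l* had the opposite course. *Eif3l* stood at 353, 349 and 237 CPM in the 3 ZT2 replicates, 99.9, 100.4 and 69 at ZT6 and, at ZT10, 129, 109 and 122. It stood at 156, 124 and 154 CPM at ZT14, 198, 202 and 118 at ZT18 and 285, 283 and 278 at ZT22. All 6 replicates from ZT22 and ZT2 lay above the other 12, with a 3.48-fold range between ZT2 and ZT6 (q = 1.09e-05). *Eif3d*, which can bind the cap of some mRNAs, went with it, from 208 ± 37.5 CPM at ZT2 to 86.4 ± 7.91 CPM at ZT6 (q = 1.44e-05). A further group was highest at ZT2, ZT10 or ZT22 and lowest at ZT14. It held *Eif3e* (241 ± 30.8 CPM at ZT22 and 120.4 ± 6.76 at ZT14), *Eif3i* (393 ± 26.9 CPM at ZT2 and 250.4 ± 15 at ZT14), *Eif3k* (364 ± 37 CPM at ZT10 and 198 ± 15.8 at ZT14) and *Eif3m* (190.4 ± 26.5 CPM at ZT2 and 93 ± 8.0 at ZT14). Their q values were 9.60e-04, 0.0179, 0.00329 and 1.99e-04. For *Eif3m* the replicates gave 218, 187 and 166 CPM at ZT2, 135, 118 and 111 at ZT6, and 135, 183 and 155 by ZT10. *Eif3m* gave 88.8, 102 and 87.9 CPM at ZT14, 116, 109.5 and 129.9 at ZT18 and 169, 183 and 175 at ZT22. The *Eif3m* replicates of ZT14 lay below all others. The annotation holds a near-identical copy of *Eif3m*, *Gm7658*, with 30.1% as many counted reads, so the split of reads between these 2 genes is uncertain.

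*Eif3f* was high at ZT6 (111 ± 19.4 CPM) and ZT10 (104 ± 13.7 CPM), against 54.7 ± 2.09 CPM at ZT2 and 45.1 ± 12.4 at ZT14 (q = 5.04e-05). The paralogs *Eif3j1* and *Eif3j2* were highest at the same timepoints, at low levels, with 7.4 ± 0.462 CPM at ZT6 (q = 0.00763) and 13.7 ± 2.91 CPM at ZT10 (q = 0.0349). Their transcripts are 99.4% identical over the aligned part, so reads may be shared between them. *Eif3b*, the scaffold subunit, was lowest at ZT18 (28.9 ± 2.81 CPM) and highest at ZT2 (63.2 ± 16.8 CPM, q = 0.00159). For *Eif3b* the replicates gave 82.2, 57.5 and 49.98 CPM at ZT2, 42, 44.9 and 58.6 at ZT6, and 44.7, 35.9 and 44.5 by ZT10. *Eif3b* gave 48.2, 49.6 and 52.5 CPM at ZT14, 28.1, 32.1 and 26.6 at ZT18 and 62.7, 67.1 and 56.9 at ZT22. Its ZT18 replicates lay below all others. *Eif3a*, the largest subunit, was highest at ZT14 (224 ± 31.3 CPM) and lowest at ZT6 (149 ± 9.62 CPM, q = 0.0373), a call lost in 11 of 18 leave-one-out fits (adjusted p up to 0.0807 in edgeR). The *Eif3j2* call was lost in 10 of them (up to 0.111). *Eif3c* (q = 0.328) and *Eif3h* (q = 0.0659) did not pass. *Eif3h* ran from 234 ± 122 CPM at ZT2 to 472 ± 33.1 CPM at ZT10, with a wide spread at ZT2, and passed with DESeq2 (adjusted p = 0.0167), in 3 of 7 other alternatives and in 4 of 18 leave-one-out fits.

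The eIF4 cap-binding and helicase factors held the clearest contrast within one complex. Of the 10 genes tested, 7 changed with time and all 7 were called cycling. *Eif4g1*, the main eIF4F scaffold, was at its lowest at ZT22 and ZT2. *Eif4g1* stood at 5.15, 11.6 and 10.1 CPM in the 3 ZT2 replicates, 93.4, 128 and 74.8 at ZT6 and, at ZT10, 106, 76.7 and 108. It stood at 106, 97.5 and 79.1 CPM at ZT14, 88.7, 78.4 and 67.1 at ZT18 and 9.67, 12.6 and 10.4 at ZT22. No replicate from ZT22 or ZT2 passed 12.6 CPM and none from the other timepoints was under 67.1 CPM. The mean at ZT6 (98.8 ± 27.1 CPM) was 11-fold that at ZT2 (8.95 ± 3.38 CPM, q = 3.67e-08, JTK_CYCLE exact p = 0.00672). It rose from ZT2 to ZT6 by 3.46 ± 0.29 (SE) on the log2 scale and fell from ZT18 to ZT22, with a difference of -2.84 ± 0.28. The related scaffold *Eif4g3* did not pass (q = 0.134), with all timepoint means between 118 ± 10.04 and 162 ± 32 CPM. For *Eif4g3* the replicates gave 122, 157 and 138 CPM at ZT2, 129, 161 and 182 at ZT6, and 125, 106 and 123 by ZT10. *Eif4g3* gave 198, 135 and 154 CPM at ZT14, 142, 100.2 and 118 at ZT18 and 147, 149.8 and 167 at ZT22. No replicate left the range of 100.2 to 198 CPM. After correction of a length and GC trend *Eif4g3* passed (edgeR, adjusted p = 0.0303). Its difference between ZT14 and ZT10 then turned to -0.22 on the log2 scale.

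*Eif4g2* (DAP5), an eIF4G relative that lacks the eIF4E-binding part, was highest where *Eif4g1* was lowest. *Eif4g2* stood at 1432, 1484 and 1389 CPM in the 3 ZT2 replicates, 403, 498 and 647 at ZT6 and, at ZT10, 454, 403 and 466. It stood at 882, 715 and 768 CPM at ZT14, 1012, 1030.5 and 675 at ZT18 and 1222, 1046 and 1409 at ZT22. All 6 replicates from ZT22 and ZT2 lay above the other 12, and the mean at ZT2 was 3.25-fold that at ZT10 (q = 6.28e-06). The helicase gene *Eif4a2*, the second most abundant member by CPM, had a similar course. *Eif4a2* stood at 2831, 2452 and 1986 CPM in the 3 ZT2 replicates, 1146, 1109 and 879 at ZT6 and, at ZT10, 1224, 1236 and 1032. It stood at 1020.0, 952 and 1064 CPM at ZT14, 1409, 1438 and 1344 at ZT18 and 2120.0, 2443 and 2199.9 at ZT22. Again no replicate of ZT22 or ZT2 overlapped the rest, with 2423 ± 423 CPM at ZT2 against 1012 ± 56.5 at ZT14 (2.39-fold, q = 3.10e-06). The sister helicase *Eif4a1* was highest at ZT6 (177 ± 19.7 CPM) and lowest at ZT2 (88.3 ± 9.9 CPM, q = 8.46e-04). For *Eif4a1* the replicates gave 94.2, 93.9 and 76.9 CPM at ZT2, 158, 176 and 197 at ZT6, and 137, 127 and 164 by ZT10. *Eif4a1* gave 103, 122 and 92 CPM at ZT14, 93.2, 96.3 and 139.6 at ZT18 and 84.9, 101 and 89.4 at ZT22. Its ZT6 replicates lay above all others but those of ZT10.

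*Eif4e*, the cap-binding protein, had 473 ± 65.1 CPM at ZT2, 449 ± 31.6 at ZT22 and 224 ± 7.16 at ZT14 (q = 6.27e-06). For *Eif4e* the replicates gave 529.6, 486 and 402 CPM at ZT2, 263, 217 and 209 at ZT6, and 239, 258 and 228 by ZT10. *Eif4e* gave 228, 216 and 228 CPM at ZT14, 323, 365 and 321 at ZT18 and 459.8, 474 and 414 at ZT22. All 6 replicates of ZT22 and ZT2 lay above the other 12. *Eif4e2* (4EHP), a cap-binding relative that does not form eIF4F, ran from 30.9 ± 11.3 CPM at ZT6 to 78.3 ± 10.4 CPM at ZT2 (q = 8.44e-04). For *Eif4e2* the replicates gave 84.1, 84.6 and 66.3 CPM at ZT2, 41.4, 18.9 and 32.3 at ZT6, and 24.3, 42.9 and 37.2 by ZT10. *Eif4e2* gave 52.2, 55.1 and 48.2 CPM at ZT14, 51.3, 70 and 64.6 at ZT18 and 66.9, 75.9 and 88.6 at ZT22. The ZT6 and ZT10 replicates (at most 42.9 CPM) lay below every other (at least 48.2 CPM). *Eif4h*, a cofactor of the eIF4A helicase, had the trough of *Eif4g1* on a smaller scale, with 103 ± 34.3 CPM at ZT2 and 241 ± 17.9 CPM at ZT10 (q = 3.62e-04). The other helicase cofactor, *Eif4b*, did not pass in edgeR (q = 0.0713), with 219 ± 18.1 CPM at ZT2 and 113 ± 5.19 CPM at ZT6. *Eif4b* passed with DESeq2 (adjusted p = 0.00799), in 4 of 7 other alternatives and without ZT18 replicate B or C (edgeR, adjusted p = 0.00104 without C). *Eif4a3*, the RNA helicase of the exon junction complex, was at 84.4 ± 36.3 CPM at ZT6 and 112 ± 11.7 CPM at ZT14 (q = 0.815).

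**Figure D2:**
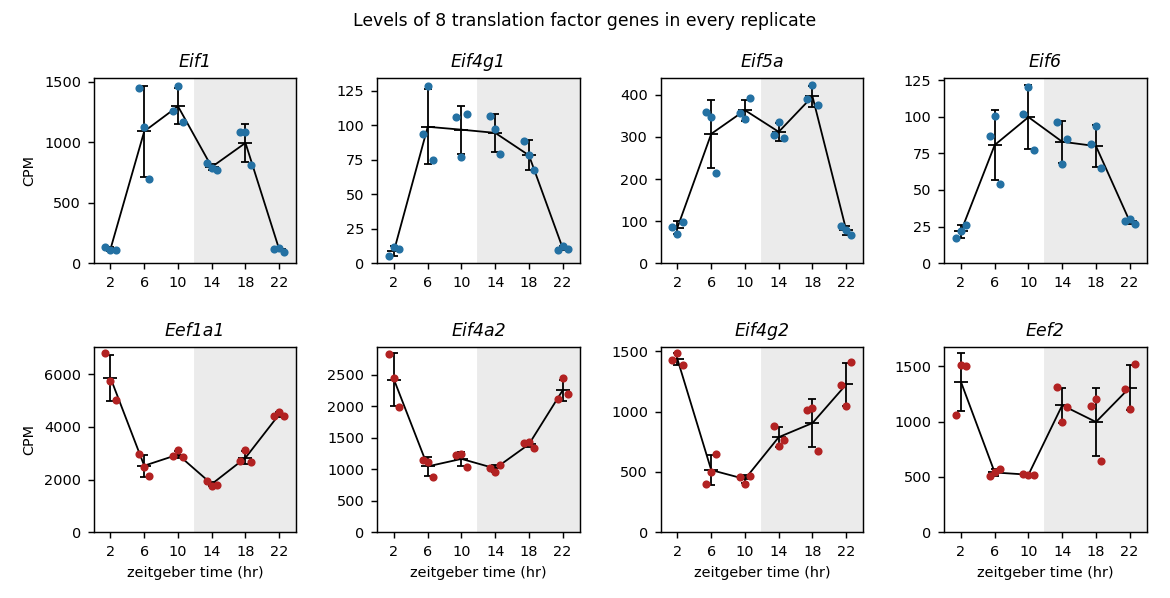
CPM of 8 members in every replicate (points) by zeitgeber time in hr, with the timepoint mean and SD of n = 3 (black), grey marking the dark phase and each panel starting at 0. *Eif1*, *Eif4g1*, *Eif5a* and *Eif6* (blue) were lowest at ZT22 and ZT2, and *Eef1a1*, *Eif4a2*, *Eif4g2* and *Eef2* (red) had their highest means at ZT2.

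The eIF4E-binding proteins hold eIF4E away from eIF4G until mTOR phosphorylates them. Both of the 4E-BP genes tested changed with time and were called cycling, at low levels. *Eif4ebp2*, the main form in brain, was highest at ZT14 (13.6 ± 2.73 CPM) and lowest at ZT22 (4.62 ± 0.723 CPM, q = 0.0127). *Eif4ebp1* had 5.29, 10.9 and 11.8 CPM at ZT10 and 0.735, 0.775 and 0.886 at ZT2 (q = 0.0311), but 3.64, 2.04 and 0 CPM at ZT6. *Eif4ebp1* gave 3.57, 3.45 and 3.38 CPM at ZT14, 3.23, 2.51 and 3.3 at ZT18 and 1.23, 0.441 and 1.9 at ZT22. ZT6 replicate C held no read of it, and its call, made on low counts, was lost without any 1 of the ZT2 replicates, ZT10 replicate B or C, or ZT22 replicate A or B, which is 7 of 18 leave-one-out fits (adjusted p up to 0.106 in edgeR). *Eif4enif1* (4E-T), the protein that carries eIF4E into the nucleus, did not pass in edgeR (q = 0.0524). It passed with DESeq2 (adjusted p = 0.00233), in 6 of 7 other alternatives and in 4 of 18 leave-one-out fits, so its call depends on the processing.

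eIF5A helps the ribosome through difficult peptide bonds, and eIF6 keeps the large subunit apart from the small one. *Eif5a* was the member with the third largest change among those of at least 10 CPM. *Eif5a* stood at 86.7, 68.8 and 99.1 CPM in the 3 ZT2 replicates, 360.0, 348 and 215 at ZT6 and, at ZT10, 357, 342 and 392. It stood at 304, 336 and 297 CPM at ZT14, 389.8, 423 and 376 at ZT18 and 89, 79.8 and 67.4 at ZT22. No replicate of ZT22 or ZT2 passed 99.1 CPM and none of the others was under 215 CPM. The mean at ZT18 (396 ± 24 CPM) was 5.03-fold that at ZT22 (78.8 ± 10.8 CPM, q = 5.49e-08), but *Eif5a* was not called cycling (JTK_CYCLE exact p = 0.18). *Eif6* had the same trough. For *Eif6* the replicates gave 17.1, 22.1 and 26.1 CPM at ZT2, 87.1, 101 and 54.3 at ZT6, and 102, 120.4 and 77.2 by ZT10. *Eif6* gave 96.1, 67.7 and 85 CPM at ZT14, 81.2, 93.5 and 65.1 at ZT18 and 28.5, 30.5 and 26.8 at ZT22. Its mean at ZT10 was 4.59-fold that at ZT2 (q = 4.41e-06), with all 6 replicates of ZT22 and ZT2 below the rest. *Eif5a2*, the second eIF5A gene, did not pass (q = 0.289), with 13.7 ± 7.6 CPM at ZT10 and 27.3 ± 5.52 CPM at ZT18. For *Eif5a2* the replicates gave 29.97, 15.7 and 17.3 CPM at ZT2, 13.4, 15.6 and 25.1 at ZT6, and 19.8, 16.1 and 5.19 by ZT10. *Eif5a2* gave 27.7, 16.4 and 22.8 CPM at ZT14, 21.7, 32.8 and 27.3 at ZT18 and 22.1, 24.9 and 32.3 at ZT22. The lowest replicate was ZT10 replicate C.

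Among the 7 elongation factor genes, 6 changed with time and 5 were called cycling. *Eef1a1*, the common form of eEF1A, had the highest level of all members. *Eef1a1* stood at 6796, 5763 and 5043 CPM in the 3 ZT2 replicates, 2959, 2480.4 and 2142 at ZT6 and, at ZT10, 2893, 3110.1 and 2846. It stood at 1936, 1771 and 1783 CPM at ZT14, 2709.8, 3115 and 2659 at ZT18 and 4427, 4584 and 4430.2 at ZT22. The ZT22 and ZT2 replicates lay above all others and the ZT14 replicates below all others. The mean at ZT2 (5867 ± 881 CPM) was 3.21-fold that at ZT14 (1830.0 ± 92.1 CPM, q = 9.78e-07, JTK_CYCLE exact p = 9.86e-04). *Eef1a2*, the form of mature neurons and muscle, was highest at ZT14 (107 ± 3.51 CPM) and lowest at ZT2 (45 ± 11.2 CPM, q = 0.00479). For *Eef1a2* the replicates gave 40.9, 57.7 and 36.5 CPM at ZT2, 59.8, 77 and 90.01 at ZT6, and 61.9, 58 and 74.3 by ZT10. *Eef1a2* gave 105, 105 and 111 CPM at ZT14, 80.6, 41.4 and 63.7 at ZT18 and 59.5, 56.6 and 68 at ZT22. The ZT14 replicates lay above all others. After correction of a length and GC trend the *Eef1a2* difference between these timepoints turned to -0.37 on the log2 scale (q = 0.00219), so its direction depends on the processing.

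*Eef2*, the translocase, was lowest at ZT6 and ZT10. *Eef2* stood at 1056, 1516 and 1504 CPM in the 3 ZT2 replicates, 507, 540.5 and 573 at ZT6 and, at ZT10, 527, 516 and 517. It stood at 1311, 996 and 1136 CPM at ZT14, 1140.1, 1202 and 648 at ZT18 and 1292, 1114 and 1518 at ZT22. All 6 replicates of ZT6 and ZT10 (at most 573 CPM) lay below every other replicate (at least 648 CPM), and the mean at ZT2 was 2.61-fold that at ZT10 (q = 4.99e-05). ZT18 replicate C stood well below its 2 partners. *Eef1b2*, a nucleotide exchange factor of eEF1A, was high at ZT6 and low at ZT14 and ZT18. *Eef1b2* stood at 378, 350.1 and 298 CPM in the 3 ZT2 replicates, 405, 431 and 394 at ZT6 and, at ZT10, 322, 376 and 348. It stood at 205, 224 and 189.8 CPM at ZT14, 215, 228 and 222 at ZT18 and 313, 383 and 316 at ZT22. The ZT14 and ZT18 replicates (at most 228 CPM) did not overlap with any other (at least 298 CPM), and the range was 1.99-fold (q = 6.57e-05). *Eef1g*, another subunit of the exchange complex, was highest at ZT2 (297 ± 41.4 CPM) and lowest at ZT14 (126 ± 4.23 CPM, q = 3.84e-04). *Eef1e1*, which is part of the multi-tRNA synthetase complex, was highest at ZT10 (149 ± 12.1 CPM) and lowest at ZT14 (84 ± 6.04 CPM, q = 0.00576). The third exchange subunit, *Eef1d*, did not pass (q = 0.539), but passed after correction of a length and GC trend.

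Of the enzymes that modify elongation factors, 1 of 5 passed. *Eef2k*, the kinase that switches eEF2 off, had 9.89 ± 1.2 CPM at ZT18 and 15.7 ± 3.88 CPM at ZT14 (q = 0.534). The methyltransferase gene *Eef1akmt2* ran from 46.1 ± 8.87 CPM at ZT14 to 78 ± 12.1 CPM at ZT10 (q = 0.0404), but it overlaps *Fgfr2* on the same strand and its call was lost in 10 of 18 leave-one-out fits (adjusted p up to 0.0889 in edgeR). *Eef1akmt1*, *Eef1akmt3* and *Eef2kmt* had q values of 0.555, 0.119 and 0.186. *Eef1akmt3* passed without ZT6 replicate A and *Eef2kmt* without ZT22 replicate A. *Eef1akmt3* was at 0.476 CPM on average.

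Steps between consecutive timepoints show when the members moved. From ZT2 to ZT6, 32 of 64 members passed, 15 higher and 17 lower at ZT6, beside 33.8% of all genes (17.5% higher and 16.3% lower). From ZT10 to ZT14, 15 passed, 3 higher and 12 lower at ZT14, beside 16.8% of all genes (9.31% higher and 7.52% lower). From ZT18 to ZT22, 20 passed, 11 higher and 9 lower at ZT22, beside 18.1% of all genes (6.27% higher and 11.9% lower). These 3 steps lead from one pair of timepoints to another. The median member difference was -0.06, -0.20 and 0.24 on the log2 scale in these steps, against -0.03, 0.12 and -0.04 for all genes. The balance of directions depended on scaling, since 19 members were higher and 9 lower at ZT22 than at ZT18 with DESeq2's size factors, 23 higher and 7 lower with upper-quartile normalization (added after seeing the data), and 7 higher and 8 lower after the length and GC correction, and 22 were higher and 12 lower at ZT6 than at ZT2 after that correction.

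**Figure D3:**
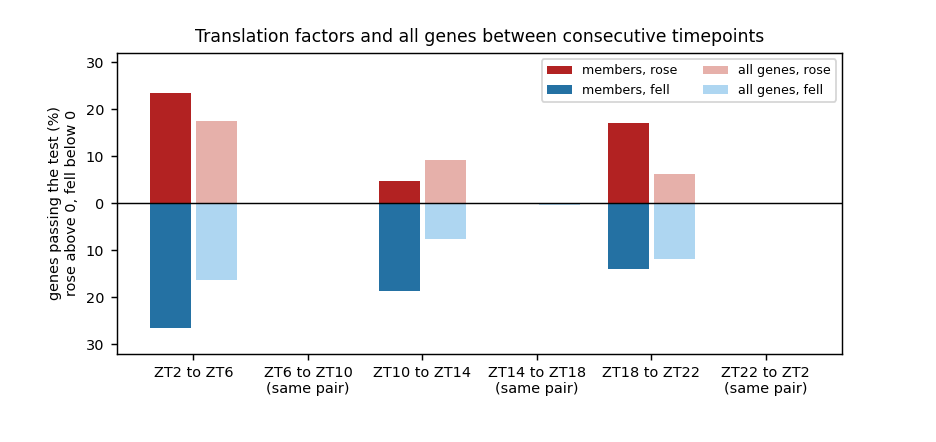
Percent of the 64 members (strong colours) and of all 18941 genes tested (pale colours) that passed edgeR's quasi-likelihood test between consecutive timepoints, higher at the later timepoint above 0 and lower below 0. Members passed in the 3 steps between pairs of timepoints and in none of the 3 steps within a pair.

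Within a pair of timepoints no member passed edgeR's quasi-likelihood test. From ZT6 to ZT10 this was 0 of 64, beside 0.0475% of all genes (0.0264% higher and 0.0211% lower). DESeq2 called 0 members and 246 genes in all. By edgeR, 3 members had an unadjusted p under 0.05 (10.8% of all genes). The smallest p values were those of *Eif4ebp1* (2.30 ± 0.93 on the log2 scale, unadjusted p = 0.0242, adjusted p = 0.409), *Eif3m* (0.38 ± 0.16) and *Eif4g3* (-0.42 ± 0.18). From ZT22 to ZT2 it was 0 of 64, beside 0.0317% of all genes (all of them higher). DESeq2 called 0 members and 34 genes in all. By edgeR, 1 member had an unadjusted p under 0.05 (3.59% of all genes). That member was *Eef1a1* (0.39 ± 0.15, edgeR, unadjusted p = 0.018, adjusted p = 1). *Eif2b4* (-0.55 ± 0.27) and *Eef1a2* (-0.45 ± 0.23) followed. *Eif1* and *Eif4g1*, which moved most between pairs, differed by 0.03 ± 0.21 and -0.28 ± 0.27 from ZT22 to ZT2.

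From ZT14 to ZT18 the count was 0 of 64 with edgeR, beside 0.570% of all genes (0.158% higher and 0.412% lower). But 15 members had an unadjusted p under 0.05 (13.5% of all genes). DESeq2's Wald test called 7 members (*Eef1a1*, *Eef1a2*, *Eef1akmt3*, *Eif1ax*, *Eif3b*, *Eif4a2* and *Eif4e*), and 842 genes in all. *Eef1a1* was higher at ZT18 by 0.63 ± 0.15 on the log2 scale (edgeR, adjusted p = 0.0681), with no overlap between its ZT14 replicates (at most 1936 CPM) and its ZT18 replicates (at least 2659 CPM). *Eif4e* was higher by 0.59 ± 0.14 (edgeR, adjusted p = 0.0728), from 228, 216 and 228 CPM at ZT14 to 323, 365 and 321 CPM at ZT18. *Eif3b* was lower at ZT18, with a difference of -0.79 ± 0.20 on the log2 scale (edgeR, adjusted p = 0.0777), from 48.2, 49.6 and 52.5 CPM to 28.1, 32.1 and 26.6 CPM. These 3 were the nearest to the threshold of any member within a pair. With at least 10 counts required in every replicate, *Eef1a1* and *Eif4e* passed. For the 45 members that changed with time, between 42.3% and 99.5% of the variance of their timepoint means lay between the pairs of timepoints (median 91.9%, against 90.6% for all changed genes). The pairs were taken from how these same libraries lay together, so this share is a description and no test of the pairing.

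Many factors exist as paralog pairs, whose ratio within a library does not depend on how libraries are scaled. A trend with GC content or length need not cancel in such a ratio. The transcripts of *Eef1a1* and *Eef1a2* have 47.4% and 60.6% GC, and those of *Eif5a* and *Eif5a2* 55.0% and 38.8%. The ratios were not run under the length and GC correction. The log2 ratio of counts was tested over the 6 timepoints for the 7 pairs with at least 10 counts in every replicate (permutation test with 100000 resamples, two-sided in effect as it uses an F statistic, Benjamini–Hochberg over the 7 pairs), and 6 pairs passed. *Eif4g1* to *Eif4g3* moved most. Its log2 ratio was -4.56, -3.76 and -3.77 in the ZT2 replicates and -3.93, -3.57 and -4.01 at ZT22, against -0.24, -0.47 and -0.19 at ZT10. The difference between ZT10 and ZT2 was 3.73, with an adjusted permutation p of 5.32e-04. *Eif5a* to *Eif5a2* differed by 3.35 between ZT10 (4.94 ± 1.13) and ZT22 (1.58 ± 0.48), with the same adjusted permutation p. Without ZT10 replicate C, which held few reads of *Eif5a2*, that difference was 2.70 and the pair still passed.

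*Eef1a1* to *Eef1a2* had a log2 ratio of 7.04 ± 0.37 at ZT2 and 4.10 ± 0.10 at ZT14 (adjusted permutation p = 1.05e-04). It also differed within pairs of timepoints, from 4.21, 4.08 and 4.01 at ZT14 to 5.07, 6.23 and 5.38 at ZT18, and from 6.22, 6.34 and 6.03 at ZT22 to 7.38, 6.64 and 7.11 at ZT2. Neither pair of timepoints overlapped in this ratio, a difference that was not tested. *Eif4a1* to *Eif4a2* ran from -4.77 ± 0.12 at ZT2 to -2.56 ± 0.36 at ZT6 (adjusted permutation p = 1.05e-04), so that *Eif4a2* had more counts than *Eif4a1* in every replicate. The annotation holds a copy of *Eif4a1* with 99.9% identity that is not among the counted genes, so the level of *Eif4a1* is uncertain. *Eif1* to *Eif1b* ran from 0.48 ± 0.20 at ZT22 to 2.51 ± 0.13 at ZT6 (adjusted permutation p = 5.32e-04), which says that *Eif1* moved more than *Eif1b*. *Eif2s3x* to *Eif2s3y* ran from -1.10 ± 0.25 at ZT10 to -0.23 ± 0.40 at ZT2 (adjusted permutation p = 0.0182), a call lost without ZT2 replicate B (adjusted permutation p = 0.0632). *Eif4e* to *Eif4e2* did not pass (adjusted permutation p = 0.056) but was close to the threshold, since it passed in 7 alternatives, 6 of them fits without 1 replicate (adjusted permutation p between 0.0197 and 0.0479).

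**Figure D4:**
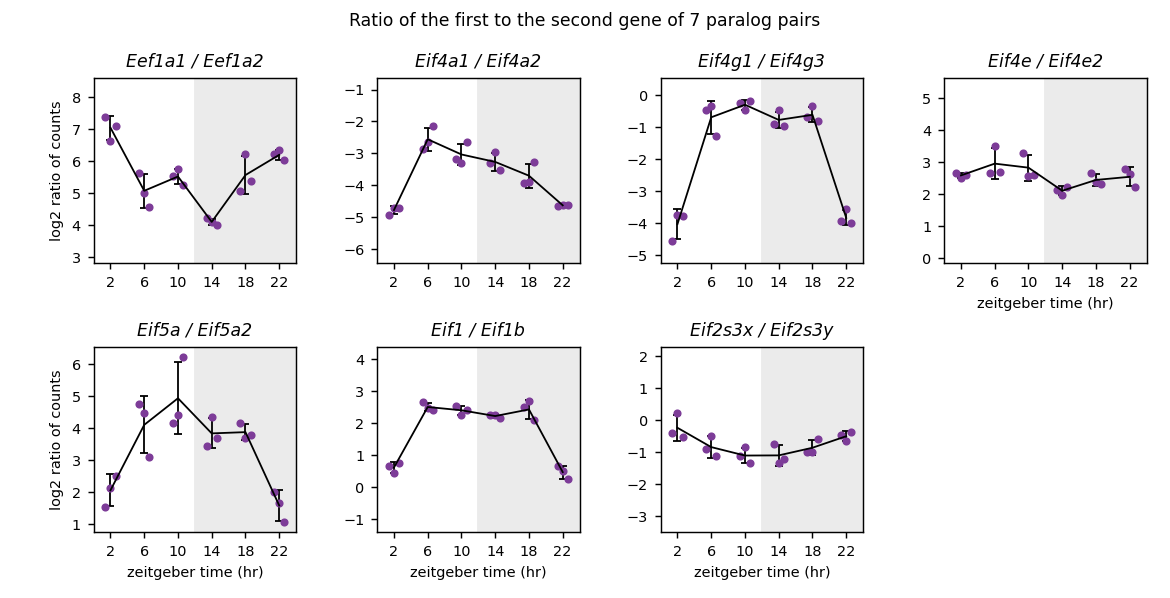
Log2 ratio of the counts of the first to the second gene of each of the 7 paralog pairs tested, in every replicate (points) with the timepoint mean and SD of n = 3 (black), by zeitgeber time in hr. All panels span the same number of log2 units. The ratio *Eif4g1* to *Eif4g3* dropped to about -4 at ZT22 and ZT2, while *Eef1a1* to *Eef1a2* was highest at ZT2 and lowest at ZT14.

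Other genes of the same process were read beside the members. Of 38 other translation control genes tested, 29 changed with time and 21 were called cycling, beside 44.0% and 29.9% of all genes tested. With at least 10 counts required in every replicate, 68.0% of all genes changed. Of the 29, 10 were highest at ZT6, as were 1753 of the 8343 changed genes over all. In 6 of the 38 all 6 replicates of ZT22 and ZT2 lay below the other 12, which held for 7.93% of all genes. The genes named next were picked from the lists after their values were seen. The pair of enzymes that make the hypusine residue of eIF5A had, like *Eif5a*, their lowest means at ZT22 and ZT2. A link between these courses was not tested. *Dohh* was at 3.32 ± 1.58 CPM at ZT2 and 109 ± 5.76 CPM at ZT10 (q = 1.66e-09), and *Dhps* at 17.3 ± 3.02 and 71.3 ± 4.03 CPM (q = 1.80e-05). *Rheb*, the activator of mTOR, was at 35.6 ± 1.52 CPM at ZT2 and 274 ± 16.1 CPM at ZT6 (q = 1.55e-07). *Pdcd4*, an inhibitor of the eIF4A helicase, was highest at ZT6 (838 ± 37.5 CPM) and lowest at ZT22 (162 ± 40.05 CPM, q = 1.06e-06). *Atf4*, whose mRNA is translated when eIF2α is phosphorylated, was lowest at ZT2 (41.7 ± 4.89 CPM) and highest at ZT6 (123 ± 18.9 CPM, q = 9.41e-06). *Mtor* itself was highest at ZT2 (94.1 ± 9.17 CPM) and lowest at ZT10 (34.8 ± 7.09 CPM, q = 6.19e-04). *Abce1*, which recycles ribosomes, was highest at ZT2 (168 ± 16.2 CPM) and lowest at ZT6 (54.7 ± 12.9 CPM, q = 2.77e-06). Of 9 mitochondrial translation factors, 7 changed with time, among them *Tsfm*, with 3.32 ± 2.24 CPM at ZT2 and 60.01 ± 7.91 CPM at ZT10 (q = 3.70e-05).

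mRNAs with a terminal oligopyrimidine (TOP) tract, which mTOR controls as a group, code for ribosomal proteins and some of the factors. Of 8 factors known to have TOP mRNAs, 6 changed with time and 6 were called cycling. From ZT10 to ZT14 their median difference was -0.67 on the log2 scale, with 5 lower and 1 higher past the threshold, and the 80 cytosolic ribosomal protein genes had a median of -1.41, with 71 lower and 0 higher. Over all genes the median was 0.12, with 7.52% lower and 9.31% higher. From ZT2 to ZT6 the courses parted, with a median of -0.43 for the 8 TOP factors (1 higher, 3 lower) and 0.68 for the ribosomal proteins (45 higher, 3 lower). Over all genes that median was -0.03, with 17.5% higher and 16.3% lower. The summed level of the ribosomal proteins ran from a median of 15372 CPM at ZT14 to 38622 CPM at ZT6, and that of the 8 TOP factors from 3806 CPM at ZT14 to 8631 CPM at ZT2.

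The clock's CLOCK and BMAL1 proteins bind E-boxes, so the 250 bases before the RefSeq start were searched for the letters CACGTG (which read the same on both strands). 51 members were in the promoter table, with 66 starts, and 11 of them had CACGTG in at least 1 window. This was 21.6% of the members, against 9.18% of 12419 tested genes in that table. Counted by window it was 19.7% of the members' windows and 6.02% of all 32851 windows. The GC box letters GGGCGG (either strand) were also more frequent, in 66.7% of the members' windows and 32.7% of all. CCAAT (either strand) was in 22.7% and 33.8% and the CRE letters TGACGTCA in 0% and 1.55%. Counted by gene the GC box gap was smaller, with 72.5% of the members and 58.8% of the tested genes. By gene CCAAT was in 29.4% and 39.8%, and the CRE letters in 0% and 2.73%. No count is corrected for base composition. Of the 11 members with CACGTG, 9 changed with time, against 27 of the 40 other members in the table. They included genes of both courses, and 4 of them (*Eif1b*, *Eif4g1*, *Eif4h* and *Eif5a*) were below and 1 (*Eif4e*) above all other replicates at ZT22 and ZT2. The windows of *Eif4g1* and *Eif1b*, which were low at ZT22 and ZT2, of *Eif4e*, which was high there, and of *Eef2*, which was low at ZT6 and ZT10, are shown because they hold the letters beside unlike courses. They are written 5′ to 3′ on the strand of the gene (RefSeq, GRCm38.p6), with CACGTG in capitals.
Eif4g1: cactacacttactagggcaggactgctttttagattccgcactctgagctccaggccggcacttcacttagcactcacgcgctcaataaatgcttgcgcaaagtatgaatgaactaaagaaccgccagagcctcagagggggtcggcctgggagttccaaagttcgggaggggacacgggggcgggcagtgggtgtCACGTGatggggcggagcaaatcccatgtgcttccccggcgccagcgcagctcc
Eif1b: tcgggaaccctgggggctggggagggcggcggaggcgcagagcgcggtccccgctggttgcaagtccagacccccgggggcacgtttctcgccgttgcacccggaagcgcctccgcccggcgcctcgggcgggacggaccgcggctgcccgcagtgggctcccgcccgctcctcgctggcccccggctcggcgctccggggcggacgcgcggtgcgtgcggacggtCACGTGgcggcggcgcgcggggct
Eif4e: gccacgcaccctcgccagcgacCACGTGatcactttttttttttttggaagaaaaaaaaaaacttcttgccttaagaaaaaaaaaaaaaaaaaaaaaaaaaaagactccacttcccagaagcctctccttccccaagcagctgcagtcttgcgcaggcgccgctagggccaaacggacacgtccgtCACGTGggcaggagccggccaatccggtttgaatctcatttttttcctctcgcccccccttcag
Eef2: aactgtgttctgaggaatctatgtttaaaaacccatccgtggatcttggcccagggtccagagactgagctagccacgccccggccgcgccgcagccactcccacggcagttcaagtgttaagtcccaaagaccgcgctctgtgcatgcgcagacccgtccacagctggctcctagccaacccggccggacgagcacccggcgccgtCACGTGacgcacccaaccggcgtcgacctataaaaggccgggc
The *Eif4g1* window is chr16:20672477-20672726 (plus strand), with CACGTG starting 54 bases before the annotated start, and that of *Eif1b* is chr9:120492356-120492605 (plus strand), with CACGTG 24 bases before it. The *Eif4e* window is chr3:138527018-138527267 (plus strand) and has 2 copies, the first 228 bases before the start. The *Eef2* window is chr10:81176381-81176630 (plus strand), with CACGTG 43 bases before the start. A match describes the letters only and is not a binding site.

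Base composition moved with the contrast between ZT22 with ZT2 and the other timepoints. Over the 64 members, Spearman's rho between this log2 difference and the GC content of the transcript was -0.32, and with exon length 0.31 (across genes, which are not independent and share the 18 libraries). Over 9573 tested genes with a mean of at least 10 CPM, rho was -0.38 and 0.21. In the class with the highest GC content, when these genes were split into 5 classes of equal size, the median difference was -0.88 on the log2 scale, and for the 8 members in that range it was -0.63. *Eif1*, with 50.9% GC, and *Eif4g1*, with 54.1% GC, fell in GC classes of tested genes whose median differences were 0.22 and -0.00374. The members in the class of *Eif1* had a median of -0.19, with 10 of 16 below 0. Those in the class of *Eif4g1* had a median of 0.10, with 6 of 16 below 0. After a per-library correction of length and GC trends, 38 of the 45 changed members still passed. The 7 calls lost were those of *Eef1akmt2*, *Eif1a*, *Eif2b2*, *Eif2b3*, *Eif2b4*, *Eif2s1* and *Eif3a*. The 3 calls gained were those of *Eef1d*, *Eif4enif1* and *Eif4g3*. In 4 members (*Eef1a2*, *Eef1e1*, *Eif2s2* and *Eif3a*) the sign of this difference turned. The part of base composition in the other results was not tested.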

How the data were processed

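Reads that passed the authors' quality trimming were aligned with GSNAP (mm10 in the submitters' processing notes) and counted by gene with HTSeq 0.5.4p1 on Ensembl genes combined with their lincRNAs. The deposited count table holds raw counts for 30031 genes with the 3 lanes of each replicate combined (54 lane samples, 18 replicates), and every sample column was used (0 left over). The second deposited table holds the authors' normalized signal, counts divided by 1 size factor per column (DESeq2), and 100% of its values were whole multiples of one step (tolerance 0.001), so whole reads were recovered as an alternative. For ZT6 and ZT10 the recovered reads of the members were lower than the counts by a median of 0.12 to 0.14 on the log2 scale. Of the genes in both, 36.8% to 47.1% had identical reads in a ZT6 or ZT10 replicate, against 94.7% to 96.3% in every other replicate. With recovered reads the median log2 difference of all genes was -0.20 from ZT2 to ZT6 and 0.22 from ZT10 to ZT14. With the counts these medians were -0.03 and 0.12. Whether reads were counted by strand is not given in the sources used here, and 22 members overlap another counted gene.

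A gene was tested if more than 6 replicates held 1 read or more of it (18941 genes). edgeR 4.0.16 in R 4.3.3 used TMM scaling, a quasi-likelihood F-test over the 6 timepoints, tests of the 6 consecutive steps from the same fit, and Benjamini–Hochberg adjustment over all genes (threshold 0.05). JTK_CYCLE (24 hr, 6 lags, exact null, Bonferroni over lags) was written in Python 3.11.15 with numpy 2.4.6 and pandas 2.3.3, and figures used matplotlib 3.10.9. DESeq2 1.42.0 and limma 3.58.1 gave alternatives. The scripts were tested on simulated data. P-values measure the spread between pools of mice. Depth limits low genes most. The counting error of a level was not given apart from the SD.

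Members and lists were chosen with earlier results of these data known. Members named in full are the 3 elongation and the 3 initiation factors with the highest mean CPM, up to 8 with the largest difference among those that changed with time with a mean of at least 10 CPM and separate replicates, the 3 with the smallest p in each within-pair step, and the tested paralog pairs; other members are given by mean ± SD. Genes outside the members were picked after their values were seen, from lists of translation control genes. Near-identical copies were transcripts aligned at 95% identity or more over at least 50% of their length (GENCODE M21, GRCm38). They were found for 8 members, and for 5 of these a copy was among the counted genes. The copies of *Eif4a1*, *Eef1g* and *Eif3h* (highest identity 99.9%, 99.6% and 96.3%) were not. The counted copies of *Eef1a1* had 0.619% as many reads as the gene. Alternatives were DESeq2 in place of edgeR, 2 other normalizations, 2 other filters, recovered reads, a length and GC offset (loess span 0.3), cosinor regression, a replicate block and each replicate left out; upper-quartile scaling and recovered reads for the steps were added after seeing the data.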

Additional observations from a re-analysis of the deposited data

Results flagged for a closer look

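*Eif4e3*, which codes for another member of the eIF4E family, was flagged because it has signal in data outside the tests above. It is in the authors' normalized table but not among the counts used here. Its normalized values lay between 161 (ZT18 replicate A) and 611 (ZT6 replicate C), and the whole reads recovered from them numbered 152 to 505 per replicate and 5499 in all. The timepoint means were 334 ± 22.3 at ZT2, 397 ± 187 at ZT6 and 335 ± 102 at ZT10. In the night they were 247 ± 74.9 at ZT14, 189.7 ± 29.2 at ZT18 and 276 ± 49.8 at ZT22 (normalized counts, SD, n = 3). The ZT18 replicates did not overlap with those of ZT2, but no test over timepoints was made for this gene. *Eif4ebp3* was also only in that table, with 6 reads in all.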

How the results depend on the processing

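Between 38 and 48 of the 64 members changed with time when 1 replicate was left out, and 41 to 49 under the other alternatives. The cycling count was 29 to 38 without 1 replicate and 24 to 37 otherwise, lowest with JTK_CYCLE p adjusted over genes. Replicate letters did not pair the samples (median correlation of same-letter deviations 0.00283 over 45 pairs of replicates, 10 above 0.1, against -0.0115 for different letters), and with the replicate block 41 members changed and 33 were called cycling, while the paired step counts were 31, 0, 15, 0, 23 and 0 in order from ZT2 to ZT6; 5 of 18 replicates correlated best with their own letter.

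From ZT14 to ZT18, where edgeR called 0, DESeq2 called 7 members (842 genes in all). A minimum of 10 counts per replicate gave 2, and fits without 1 replicate 0 to 3 (3 without ZT6 replicate C, 2 without ZT2 replicate C and 1 without ZT2 replicate A). From ZT18 to ZT22, where edgeR called 20, DESeq2 called 34 members (4666 genes in all). Fits without 1 replicate called 12 to 29, with 12 without ZT22 replicate B. The counts without 1 replicate were 26 to 37 from ZT2 to ZT6 and 11 to 18 from ZT10 to ZT14, and 0 in both other within-pair steps. Between 5 and 8 paralog pairs passed without 1 replicate, where 6 of 7 passed with all, and *Eif4e* to *Eif4e2* passed in 6 fits without 1 replicate and with recovered reads (adjusted permutation p = 0.0314). Under the length and GC correction *Eif4g3* turned to -0.22 between ZT14 and ZT10 and *Eef1a2* to -0.37 between ZT14 and ZT2. Of 24 named members, 19 kept their direction and their side of the threshold under every alternative of the time test. Upper-quartile scaling moved the median of all genes from -0.04 to 0.11 from ZT18 to ZT22 and from 0.12 to -0.02 from ZT10 to ZT14. The causes were not tested. Depth limits the factors under 10 CPM (*Eif3j1*, *Eif3j2*, *Eif4ebp1*, *Eif4ebp2* and *Eef1akmt3*).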
